A study of Mus musculus with 59 samples.

Results

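Livers taken after a saline injection were compared with livers of undisturbed mice on the same purified diet, gene by gene. The 10 arrays compared were chosen by their labels, 5 from saline-injected mice and 5 from undisturbed controls, among 59 arrays in the whole series. Both groups were male C57BL/6 mice, an inbred laboratory strain, aged 6 weeks at the start and acclimated for 2 weeks to AIN-76A, a diet made from purified ingredients. Saline-injected mice received an intraperitoneal injection of saline without drug or arsenite, and livers were taken 8 hours later. Undisturbed controls were kept for 5 weeks without added arsenite and without an injection. Weeks on study, handling and the injection therefore differ together between the groups and cannot be told apart. The labels used here do not give the time of day of sampling, the feeding state or how long the injected mice stayed on the diet after acclimation. Other AIN-76A groups used below were injected with dexamethasone at 1 mg/kg, a synthetic glucocorticoid, with arsenite at 1 mg/kg, or with both, and livers were also taken after 8 hours. The remaining AIN-76A groups were undisturbed for 5 weeks with arsenite at 10 or 100 ppb in water or at 10 ppb in food. Each group held 5 arrays, except for 4 at 100 ppb in water.

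A vehicle injection is the usual reference for an injected drug, while the undisturbed control is the usual reference for an exposure through food or water. In rodents, restraint and injection are known to release corticosterone, which acts through the glucocorticoid receptor and induces genes such as Per1, Fkbp5 and Tsc22d3 in the liver. The liver also runs a circadian clock, in which CLOCK and BMAL1 (gene Arntl) drive Per, Cry, Nr1d1 and Dbp, whose levels swing over the day and follow feeding time. Acute phase genes, such as the serum amyloids, are induced in hepatocytes by IL-6 and IL-1.

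All values are RMA levels, log2 expression values per probe set from Affymetrix arrays, and each difference is saline minus control on that scale with its standard error (SE). A difference of 1 is a change of 2 times. Arrays from within the saline group correlated at a median of 0.94 and those within the control group at 0.95, against 0.95 between the groups, over 5781 brighter probe sets. Control replicate C had the lowest upper quartile of its group, 3.75 against 4.09 to 4.22 in the other controls. Saline replicate F was the lowest of its group, at 3.96 against 4.10 to 4.19. These 2 arrays were set apart by a rule that picks 1 array in every group. It takes the array lowest on the first principal component, the main axis of variation within groups. Saline replicate F correlated with its own group at a mean of 0.95, while saline replicate C was the lowest at 0.92. Values without the 2 arrays apart come from a fit that leaves out the array picked in every AIN-76A group. Hepatocyte markers were close in level in both groups. Albumin (Alb) lay between 13.62 and 13.81 in saline livers and between 13.60 and 13.76 in control livers. The 95% interval of the difference lay within 1 log2 unit for all 12 hepatocyte markers measured.

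No probe set passed an adjusted p of 0.05 between saline-injected and control livers, by limma with Benjamini-Hochberg adjustment over 45037 probe sets (0.00% called). The lowest adjusted p was 0.24. At an unadjusted p under 0.05 there were 720 probe sets higher and 888 lower in saline livers, 1608 in all (3.57%). If no probe set differed, 2252 would reach that level on average, which is more than were found. Represented by 1 probe set each, 18193 genes gave 655 at that level (3.60%), 328 higher (1.80%) and 327 lower (1.80%). The 5 saline arrays lay entirely above or below the 5 control arrays in 94 genes (0.517%), 49 above (0.269%) and 45 below (0.247%).

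**Figure D1:**
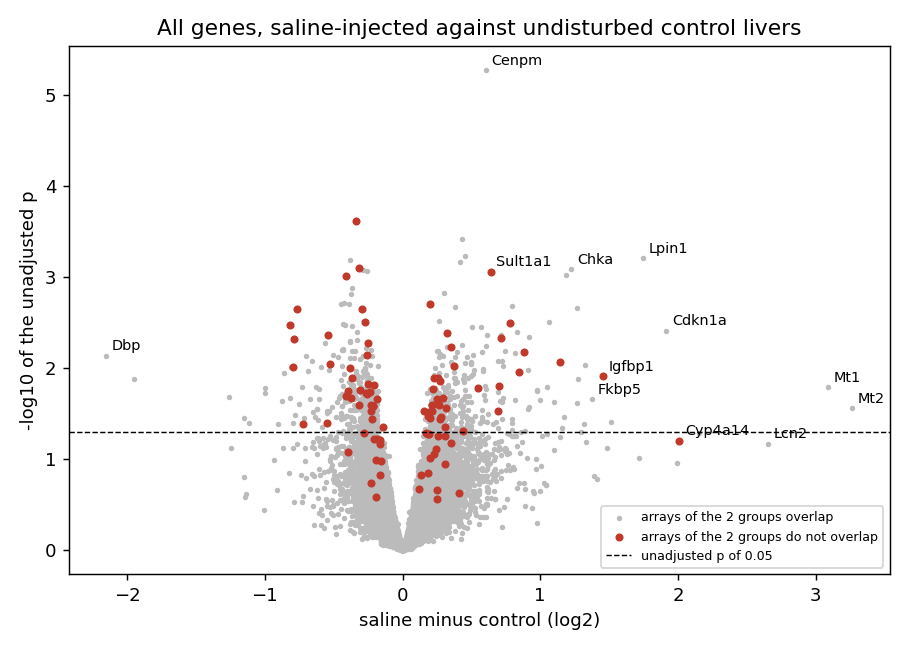
Each point is 1 of 18193 genes, with saline minus control in log2 on the x axis and −log10 of the unadjusted p from limma on the y axis. Red points are the 94 genes whose arrays do not overlap between the groups, and the dashed line marks an unadjusted p of 0.05. Mt1, Mt2 and Lcn2 lie far to the right but low on the y axis, while Cenpm stands highest at a difference of 0.61.

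The absence of calls does not show that the groups were alike, so the intervals of the differences were read. The 95% interval lay within 1 log2 unit of 0 for 17227 of 18193 genes (94.7%). Among the 3789 genes with a mean level over 6 it did so for 3422 (90.3%), with a median half-width of 0.39. Differences beyond 1 log2 unit were measured for 48 genes, 22 of them among the brighter genes. The same fit called 967 probe sets (2.15%) between dexamethasone-injected and saline-injected mice, 582 higher and 385 lower with dexamethasone, and this contrast shares the saline arrays.

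The gene with the smallest p was Cenpm, which encodes a centromere protein. Its levels were 4.03, 3.31, 3.64, 3.52 and 3.94 in saline replicates A, B, C, E and F, against 2.81, 3.33, 2.94, 3.11 and 3.21 in control replicates B, C, D, E and F. Saline replicate B lay just below control replicate C, and the other saline arrays lay above all controls. The difference was 0.61 ± 0.11 (SE, n = 5 each; limma adjusted p = 0.24). Without saline replicate B the limma adjusted p was 0.0165, the one call made by leaving out a single array of the 2 groups in this comparison.

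Most of the other 9 genes with the smallest p were dim, and all had an adjusted p of 1.0 by limma. Lpin1 and Chka were the bright exceptions. Lpin1 encodes lipin 1, a phosphatidate phosphatase that the glucocorticoid receptor induces in liver. It stood at 8.66, 10.95, 8.27, 9.13 and 9.46 in saline livers, against 7.10, 6.51, 7.94, 7.54 and 8.64 in control livers. Only control replicate F reached into the saline range, and the difference was 1.75 ± 0.46. Chka encodes choline kinase alpha, the first enzyme of phosphatidylcholine synthesis from choline. It was at 6.67, 7.47, 8.18, 6.23 and 6.53 in saline livers and at 6.07, 4.13, 6.41, 6.29 and 6.05 in control livers. The low value of control replicate C carries part of its difference of 1.23 ± 0.33, which was 0.93 without the 2 arrays that stood apart. The 2 other probe sets of Chka showed no such difference, at 0.03 ± 0.14 and -0.04 ± 0.15. H2-Oa, Naip2 and AA386476 were between 0.42 and 0.45 higher. Rasl11a, Cacng4, Snapc5 and Nrg3 were between 0.28 and 0.38 lower, at mean levels under 3 in both groups. The other probe sets of Cacng4 and Nrg3 gave only -0.01 ± 0.11 and -0.08 ± 0.10. For Rasl11a and Snapc5 every saline array lay below every control array.

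Of the 17 core clock genes measured, 2 were higher and 1 lower at an unadjusted p under 0.05, beside 1.80% of all genes in each direction, and none passed the adjusted threshold. The median difference was 0.12, against 0.0098 over all genes. The 3 genes are Per1 and Rora, higher, and Nr1d1, lower. Per1 encodes a repressor of the clock that glucocorticoids also induce. The E-box that CLOCK and BMAL1 bind (CACGTG, either strand) is shown in the Per1 promoter, and the ROR element (TAGGTCA, either strand), read by the receptors that Rora and Nr1d1 encode, in that of Nfil3. Capitals mark the match in 30 bases of RefSeq sequence, build GRCm38.p6, taken upstream of a transcript start. For Per1 and Nfil3 that start lies inside the annotated gene and is not its outermost one.
Per1, chr11:69098771-69098800, plus strand: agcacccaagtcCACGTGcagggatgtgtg
Nfil3, chr13:52981040-52981069, minus strand: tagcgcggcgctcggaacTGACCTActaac
The E-box occurred in 6.02% of 32851 promoter windows of 250 bases upstream and the ROR element in 2.23%. A match is a description of the letters only.

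Per1 had levels of 4.06, 4.45, 4.28, 4.08 and 3.71 in saline livers, against 3.75, 2.65, 3.18, 3.52 and 3.32 in control livers. Apart from saline replicate F, all saline arrays were above all controls, and the difference was 0.83 ± 0.27 (limma unadjusted p = 0.00398). Nr1d1, which encodes the repressor REV-ERB alpha, was at 4.64, 4.18, 4.22, 5.43 and 4.89 in saline livers and at 5.78, 4.92, 6.13, 4.94 and 5.35 in control livers. The ranges overlapped through saline replicate E, which lay above control replicates C, E and F, and the difference was -0.75 ± 0.32. Rora, which encodes an activating receptor that binds the same element as REV-ERB, differed by 0.50 ± 0.18. Of its 8 other probe sets, 6 had the same sign (0.12 to 0.56) and 2 gave a difference of -0.18 each. The genes of the activators were close in level: Arntl averaged 4.97 ± 0.13 in saline livers and 4.88 ± 0.38 in control livers (SD, n = 5 each), and Clock differed by -0.04 ± 0.26. Cry1 and Per2, a pair of repressors, differed by 0.27 ± 0.28 and 0.24 ± 0.30. Bhlhe40 encodes a further repressor, and its difference was 0.58 ± 0.37. For Nr1d2, the paralog of Nr1d1, it was -0.48 ± 0.46.

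Among 20 clock output genes, 3 were higher and 1 lower at an unadjusted p under 0.05, beside 1.80% of all genes in each direction. The median was 0.25. The lower one was Dbp, a PAR bZIP transcription factor with a large daily swing in liver. Dbp stood at 3.06, 3.42, 2.68, 5.84 and 3.51 in saline livers, against 6.92, 6.59, 5.83, 3.10 and 6.83 in control livers. The saline arrays were low and the controls high except for replicate E of each group, which lay with the arrays of the other group. The difference was -2.15 ± 0.75 (limma unadjusted p = 0.00731). Nfil3, which encodes a repressor of the D-box sites that DBP activates, ran the other way, at 7.14, 6.91, 6.63, 5.96 and 6.75 in saline livers and 5.87, 5.99, 6.03, 6.36 and 5.68 in control livers. Here too saline replicate E was the lowest saline array and control replicate E the highest control, and the difference was 0.69 ± 0.25. Tef, a relative of Dbp, differed by 0.13 ± 0.22.

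Tsc22d3 and Nr1i3 separated the groups fully, as did 0.517% of all genes in either direction. Tsc22d3 encodes GILZ, a glucocorticoid-induced leucine zipper protein. It had levels of 8.14, 7.66, 7.42, 7.86 and 8.07 in saline livers, against 6.42, 6.74, 7.33, 7.13 and 7.12 in control livers. Every saline array was above every control, and the difference was 0.88 ± 0.31. Its 3 other probe sets gave 0.74 ± 0.35, 0.28 ± 0.17 and -0.15 ± 0.13. Nr1i3 encodes CAR, a receptor that induces drug metabolism. It was tightly grouped at 6.98, 6.61, 6.57, 6.82 and 6.65 in saline livers and spread over 6.17, 4.30, 6.51, 5.78 and 5.17 in control livers. The difference was 1.14 ± 0.41, and 0.84 without the 2 arrays apart. Noct, which encodes a rhythmic NADP(H) phosphatase of liver, and Alas1, which encodes the first enzyme of heme synthesis, differed by 1.01 ± 0.63 and 0.81 ± 0.52, with overlapping arrays.

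**Figure D2:**
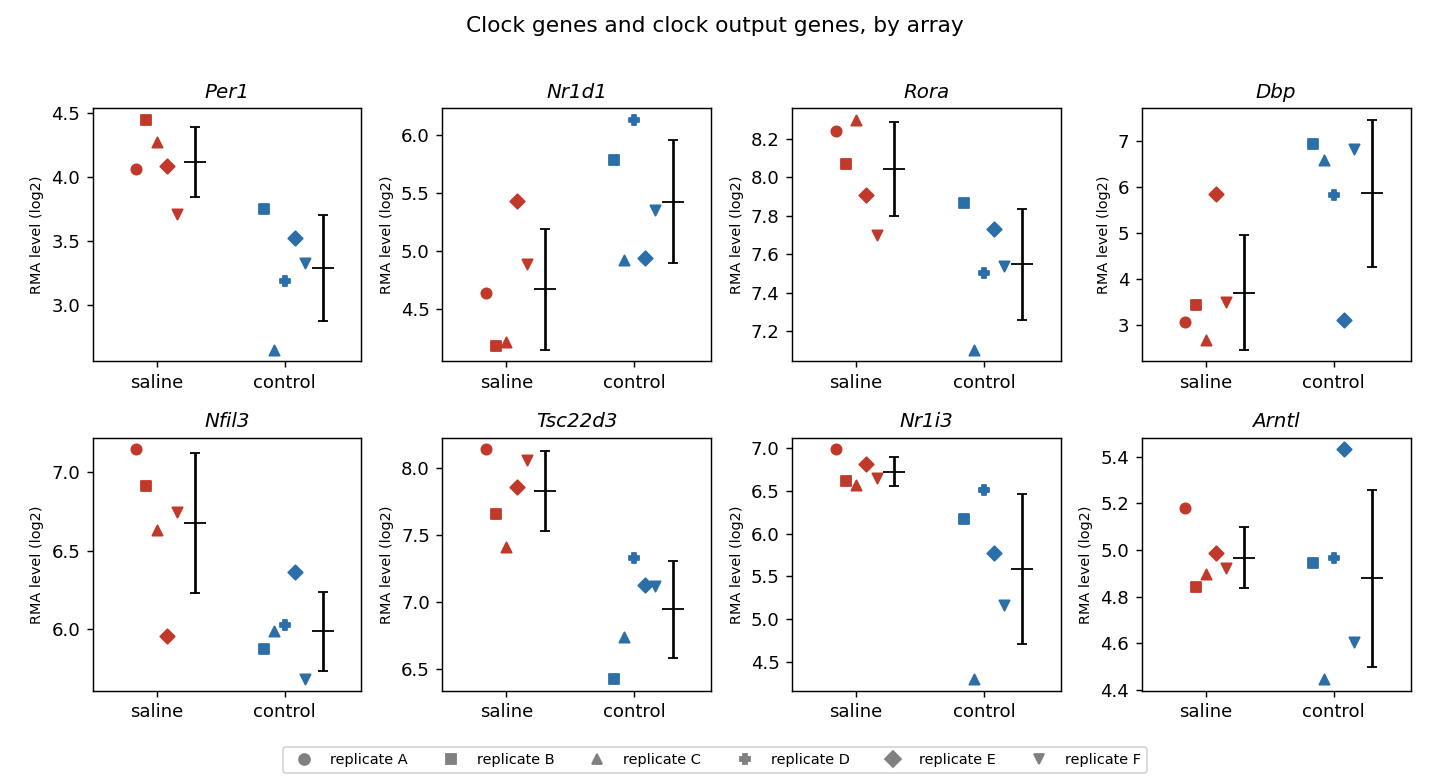
RMA levels in log2 (y axis) of 8 clock and clock output genes in saline-injected livers (red, left) and undisturbed control livers (blue, right). Each symbol is 1 array with its replicate letter in the legend, and the black bar is the mean with its SD over 5 arrays. Dbp shows replicate E of each group among the arrays of the other group. For Nfil3 saline replicate E lies among the controls, and control replicate E lies between the other controls and the other saline arrays. Tsc22d3 and Nr1i3 show no overlap.

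Of the 29 glucocorticoid targets measured, 10 were higher and none lower at an unadjusted p under 0.05, beside 1.80% of all genes in each direction, and none passed the adjusted threshold. In all, 24 of the 29 had a higher and 5 a lower mean in saline livers, with a median of 0.25 against 0.0098 over all genes. The 10 are Cdkn1a, Per1, Tsc22d3, Ddit4, Igfbp1, Gpt2, Mt1, Fkbp5, Zbtb16 and Mt2. Several also stand in the clock, metal response, cell cycle or acute phase lists. The count was 9 without the 2 arrays apart, and lay between 7 and 11 when 1 array at a time was left out. The mean level of the list was 7.16 to 8.18 over the saline arrays and 6.56 to 7.23 over the controls, with saline replicate A inside the control range.

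Fkbp5, which encodes a chaperone that dampens the glucocorticoid receptor, stood at 5.85, 6.84, 8.54, 7.01 and 5.64 in saline livers, against 4.91, 6.22, 5.15, 5.48 and 5.23 in control livers. The ranges overlapped through control replicate C, and the difference was 1.38 ± 0.57, or 1.87 without the 2 arrays apart. The 2 other probe sets of Fkbp5 gave 0.99 ± 0.44 and -0.12 ± 0.07. Chka, Ier5, Pck1 and Per2 also had 2 other probe sets each, of which 1 had the opposite sign to the one reported, as did both others of Tef and the single other one of Clec4g. Cdkn1a, the gene of the cell cycle inhibitor p21, was at 4.58, 6.91, 8.50, 5.71 and 5.09 in saline livers and 3.93, 3.16, 4.94, 4.67 and 4.51 in control livers. Saline replicate A alone lay within the control range, and the difference was 1.92 ± 0.62 (limma unadjusted p = 0.00387). Both genes were highest in saline replicate C.

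Igfbp1 encodes an insulin-like growth factor binding protein that fasting and glucocorticoids induce and insulin lowers. Its levels of 10.38, 11.41, 10.94, 10.70 and 10.73 in saline livers were all above those of 8.82, 9.75, 8.96, 9.28 and 10.06 in control livers. The difference was 1.46 ± 0.55. Ddit4, which encodes the mTORC1 inhibitor REDD1, differed by 1.32 ± 0.48, with 1 control array, replicate F, inside the saline range of 5.37 to 6.91. Zbtb16, a zinc finger gene that glucocorticoids induce in many cells, and Gpt2, which encodes an alanine aminotransferase, differed by 1.00 ± 0.42 and 0.44 ± 0.17. Other textbook targets were not clearly higher in saline livers. Tat, the gene of tyrosine aminotransferase, lay between 10.76 and 11.64 in saline livers and between 10.71 and 11.41 in control livers. Pck1, which encodes the gluconeogenic enzyme PEPCK, had a lower mean, at 9.67 to 10.47 in saline livers and 10.44 to 11.10 in control livers. Only control replicate F reached into the saline range, and the difference was -0.54 ± 0.35. With only the 10 arrays compared, the SE of Pck1 was 0.18. Sgk1, a kinase gene, differed by 0.20 ± 0.49, although its promoter window holds an exact palindromic glucocorticoid response element (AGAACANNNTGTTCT), which only 3 of 32851 windows (0.00913%) do. It is shown with the match in capitals, and as for Per1 the start used lies inside the annotated gene.
Sgk1, chr10:21993694-21993723, plus strand: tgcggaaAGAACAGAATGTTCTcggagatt

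The largest measured differences were in Mt1 and Mt2, neighbouring metallothionein genes on chromosome 8 that bind zinc and other metals and respond to metals, glucocorticoids and inflammation. Mt1 stood at 8.96, 11.59, 12.89, 11.66 and 10.86 in saline livers, against 5.34, 12.49, 5.03, 8.51 and 9.14 in control livers. Saline livers were all at 8.96 or above, while control livers were spread over the whole of that range and far below it, and control replicate C lay above all saline arrays but replicate C. The difference was 3.09 ± 1.22 (limma unadjusted p = 0.0161), and 4.27 without the 2 arrays apart. The other probe set of Mt1 gave a smaller difference of 1.78 ± 0.50. Mt2 showed the same order of control arrays, at 6.87, 10.88, 12.29, 10.96 and 9.87 in saline livers and 3.72, 11.77, 3.48, 7.01 and 8.56 in control livers. Its difference was 3.27 ± 1.42, and 4.56 without the 2 arrays. The core of the metal response element (TGCACNC or TGCGCNC, either strand), which occurred in 21.4% of all promoter windows, lies close to both starts used. The start used for Mt1 lies inside the annotated gene.
Mt1, chr8:94179055-94179084, plus strand: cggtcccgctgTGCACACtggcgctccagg
Mt2, chr8:94172557-94172586, plus strand: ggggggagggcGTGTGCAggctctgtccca

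**Figure D3:**
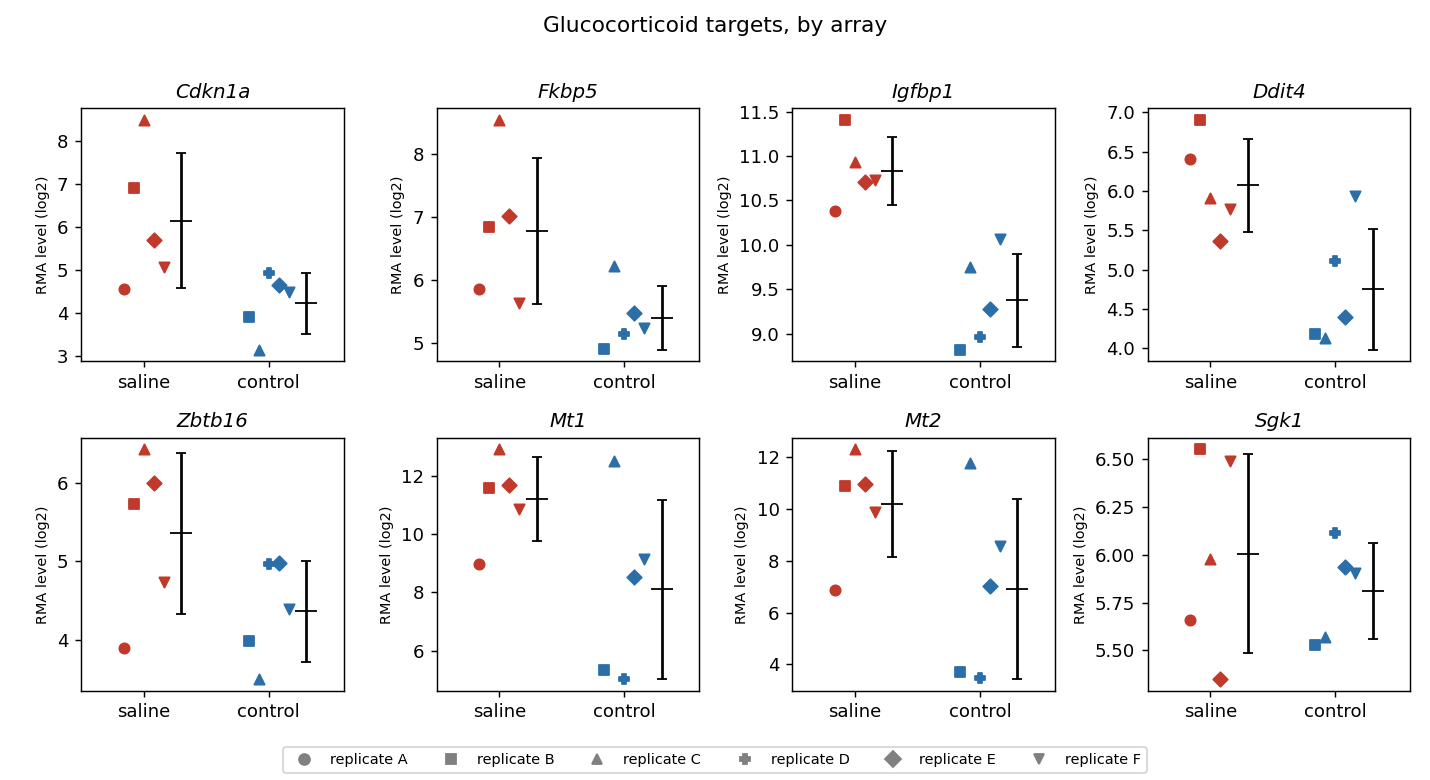
RMA levels in log2 (y axis) of 8 glucocorticoid targets in saline-injected livers (red, left) and undisturbed control livers (blue, right), drawn with 1 symbol per array and the mean with its SD over 5 arrays. Igfbp1 shows no overlap, Mt1 and Mt2 show the wide spread of the controls, and Sgk1 shows groups that overlap.

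Immediate early genes, which many cells switch on rapidly after a stimulus, gave 1 of 26 members higher and none lower at an unadjusted p under 0.05. Over all genes the share was 1.80% in each direction. That gene was Ier5, at a difference of 0.91 ± 0.40, while its 2 other probe sets gave 0.11 ± 0.15 and -0.05 ± 0.08. Fos was at 2.75 to 3.38 in saline livers and 2.60 to 3.18 in control livers, close to the array medians of 2.42 to 2.59. Egr1 ran from 3.08 to 7.72 in saline livers and from 3.98 to 6.03 in control livers, so that its spread within the saline group covered the whole control range. Jun was high at 6.86 in saline replicate C and between 3.61 and 4.54 in the other saline arrays, against 2.73 to 5.18 in control livers.

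The cholesterol synthesis and uptake list had a higher mean in saline livers for all 20 members measured (17 after median centring of the arrays and 17 after quantile normalization), with a median of 0.51. Only Dhcr7, the gene of the last enzyme of the Kandutsch-Russell route, reached an unadjusted p under 0.05, beside 1.80% of all genes higher. Dhcr7 stood at 9.91, 8.20, 8.96, 9.23 and 9.66 in saline livers, against 8.28, 7.94, 8.32, 9.36 and 8.61 in control livers, a difference of 0.69 ± 0.33. Hmgcs1, Lss and Cyp51, which encode HMG-CoA synthase, lanosterol synthase and lanosterol demethylase, differed by 0.70 ± 0.38, 0.69 ± 0.36 and 0.77 ± 0.44. Without the 2 arrays apart, 17 of the 20 were higher and the median was 0.31. Without saline replicate B, the lowest saline array for this list, 7 members passed that unadjusted level.

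Lipid genes outside sterol synthesis were scattered. Of 24 lipogenic genes, 1 was higher (Lpin1) and 1 lower at an unadjusted p under 0.05, beside 1.80% of all genes in each direction. The lower one was Me1, which encodes malic enzyme, a source of NADPH. Me1 was at 10.24, 9.96, 7.73, 7.25 and 9.76 in saline livers and at 11.06, 9.24, 10.03, 9.94 and 10.41 in control livers, a difference of -1.15 ± 0.52. The difference was -0.72 without saline replicate E, and the other probe set of Me1 gave -0.26 ± 0.58. Among 27 genes of fatty acid oxidation and PPAR alpha, none passed that level. Cyp4a14, a fatty acid omega-hydroxylase gene that PPAR alpha induces, still separated the groups fully. It stood at 3.30, 4.58, 5.09, 2.58 and 4.81 in saline livers and at 2.22, 2.07, 1.90, 1.96 and 2.14 in control livers. The difference was 2.01 ± 1.04 (limma unadjusted p = 0.0624), with an SE that includes the wide spread of this gene in other AIN-76A groups. Sult1a1, a phenol sulfotransferase gene, was bright and tight, at 10.88 to 11.16 in saline livers, all above the 9.88 to 10.74 of control livers, and differed by 0.64 ± 0.18. Nudt7, which encodes a peroxisomal coenzyme A hydrolase, was at 11.13 to 11.71 in saline livers, all below the 11.82 to 12.25 of control livers, with a difference of -0.53 ± 0.19.

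Acute phase genes split the arrays within both groups. Saa1, a serum amyloid A gene, was at 13.31, 10.86, 13.45, 13.41 and 13.51 in saline livers, against 8.54, 13.61, 8.98, 13.48 and 12.49 in control livers. Saline replicate B was low, and control replicates B and D were lower still, while control replicates C and E matched the high saline arrays. Lcn2, the gene of lipocalin 2, an iron-siderophore binding protein, was low in the same arrays, with 6.18 in saline replicate B and 11.18 or more in the other saline livers. Its control values were 3.76, 11.33, 4.11, 11.71 and 8.53. The differences of 1.49 ± 0.81 for Saa1 and 2.65 ± 1.41 for Lcn2 had unadjusted p of 0.076 and 0.068 by limma. Saa2 differed by 1.99 ± 1.21 and Orm2, an orosomucoid gene, by 0.97 ± 1.42.

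Over the acute phase list, 2 of 26 members (Mt2 and Serpina3n) were higher and 1 (Hamp) lower at an unadjusted p under 0.05. The share over all genes was 1.80% in each direction. The list had a median of 0.32, with 21 members higher. Serpina3n, a serine protease inhibitor gene, differed by 1.32 ± 0.62. Hamp, the gene of the iron hormone hepcidin, differed by -0.90 ± 0.43, with saline values of 9.89 to 12.26 against control values of 11.78 to 12.57. Without saline replicate B, 7 members of the list were higher at that level, and without saline replicate C none was. The chemokine gene Cxcl1 varied as widely, at 5.66 to 10.29 in saline livers and 3.91 to 9.46 in control livers, and differed by 2.15 ± 1.07.

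Leukocyte markers were high in 1 saline array. S100a9, which encodes a calprotectin subunit abundant in neutrophils, was at 4.95, 5.18, 6.61, 10.19 and 4.72 in saline livers and at 3.26, 5.58, 3.42, 5.08 and 5.74 in control livers. Ngp and Ltf, which encode neutrophil granule proteins, were at 7.33 and 6.33 in saline replicate E, while every other array of both groups was at 2.99 or below. The macrophage genes Marco and Lyz2 were also highest there, at 8.71 and 9.79. The mean level of the 12 neutrophil markers measured was 5.15 in saline replicate E and 2.67 to 2.86 in the other saline arrays, against 2.44 to 3.11 in control arrays. The difference of S100a9 was 1.71 ± 1.00 with that array and 0.75 without it. In whole liver, a change in the number of cells of a type and a change in RNA per cell cannot be told apart, in either direction.

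**Figure D4:**
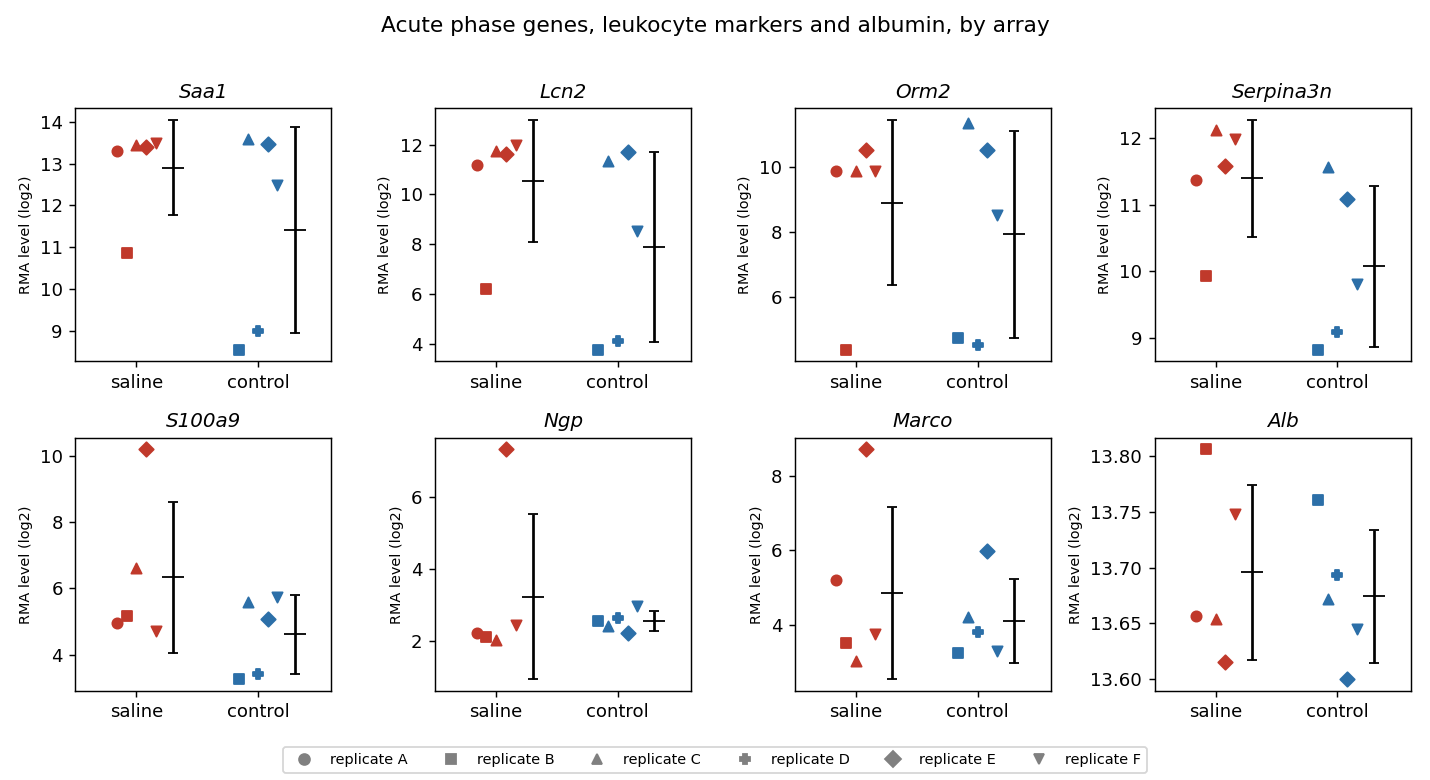
RMA levels in log2 (y axis) of acute phase genes (Saa1, Lcn2, Orm2, Serpina3n), leukocyte markers (S100a9, Ngp, Marco) and albumin in saline-injected livers (red, left) and undisturbed control livers (blue, right), with 1 symbol per array and the mean with its SD over 5 arrays. Replicates B in both groups and D in the controls are low for Saa1 and Lcn2, saline replicate E is high for Ngp and Marco, and Alb spans less than 0.3 log2 units on its own axis.

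Other cell types gave small differences. Of 15 endothelial markers, 13 had a lower mean in saline livers, with a median of -0.11, and 2 were lower at an unadjusted p under 0.05, beside 1.80% of all genes. These were Fcgr2b and Clec4g, both markers of sinusoidal endothelium, at -0.70 ± 0.25 and -0.61 ± 0.24. Without the 2 arrays apart, 5 endothelial markers were lower at that level, with a median of -0.16. The macrophage list had 15 of 17 members lower, none at that level, with a median of -0.25, which was -0.08 without the 2 arrays apart. Mesothelial markers gave a median of 0.01 over 10 genes. Msln, the defining marker, was near the bottom of the scale in both groups, at 1.94 to 2.42 in saline livers and 1.68 to 2.19 in control livers.

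Stress and growth lists also had medians above that of all genes without a call. The ER stress list had 25 of 27 members with a higher mean in saline livers, a median of 0.22 and none at an unadjusted p under 0.05. Without saline replicate B, 5 members were higher at that level. Its member with the smallest p, Herpud1, which takes part in the disposal of misfolded ER proteins, differed by 0.55 ± 0.28. Ribosome biogenesis and Myc target genes had 23 of 27 higher, a median of 0.26 and 4 higher at that level, beside 1.80% of all genes. Among them Utp20, a gene of small-subunit rRNA processing, stood at 6.34, 6.11, 6.59, 5.44 and 5.45 in saline livers and 5.46, 3.92, 5.68, 5.70 and 5.46 in control livers. Without control replicate C none of the 27 was at that level. Of 21 heat shock and metal response genes, the 2 at that level were Mt1 and Mt2, both higher, beside 1.80% of all genes. The heat shock genes Hspa1b and Dnajb1 differed by 0.61 ± 0.43 and 0.66 ± 0.46, and Dnajb1 by 0.31 without the 2 arrays apart. Rrm2, which encodes a ribonucleotide reductase subunit, differed by 1.05 ± 0.42 within a cell cycle list whose median was -0.01, and its 2 other probe sets gave 0.61 ± 0.26 and -0.14 ± 0.27.

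Another pair of injected and undisturbed AIN-76A groups shares no array with this comparison. Arsenite-injected livers were set against livers of mice given 10 ppb arsenite in water, so that dose and route of arsenite differ as well. The fit, and with it the estimate of spread, is shared. Again no probe set was called (0.00%), with a lowest adjusted p of 0.0536, and 2551 (5.66%) had an unadjusted p under 0.05 by limma. Over genes, 1171 of 18193 (6.44%) were at that level. Of the 655 genes at that level in saline against control livers, 416 (63.5%) had the same sign in this second contrast, beside 10133 of all 18193 genes (55.7%). At that level in both contrasts were 72 genes, of which 59 had the same sign.

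Dbp, Nr1d1, Nfil3, Cdkn1a, Mt1, Mt2, Chka, Utp20 and Ier5 were among those 59. Dbp averaged 3.09 ± 0.77 in arsenite-injected livers and 6.75 ± 2.03 in livers given 10 ppb in water (SD, n = 5 each), a difference of -3.66, beside -2.15 for saline against control. Nr1d1 differed by -1.82 there and by -0.75 for saline against control. Of the 10 genes with the smallest p for saline against control, 5 had the same sign in the second contrast, and Lpin1 (-0.20) and Cenpm (-0.23) had the opposite one. The difference between the 2 contrasts was itself called for no probe set (0.00%), and 1406 (3.12%) had an unadjusted p under 0.05. For Tef, the second contrast gave -1.21 and saline against control 0.13. For the cholesterol list the medians were -0.30 and 0.51.

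**Figure D5:**
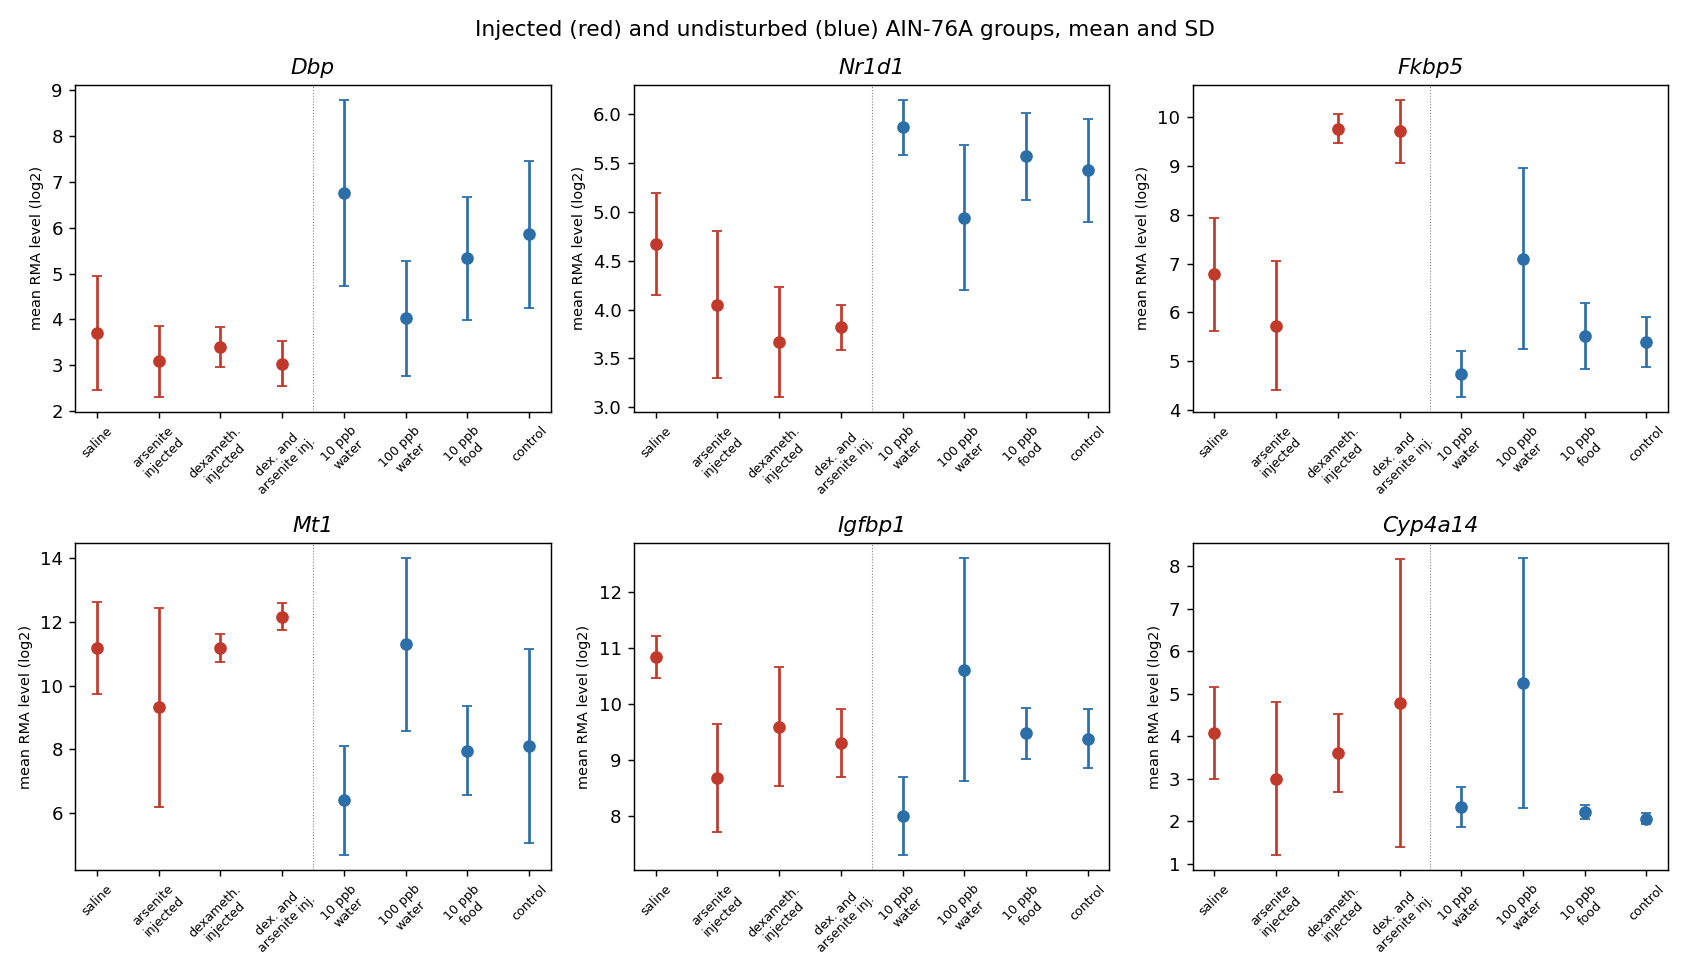
Mean RMA level in log2 (y axis) with its SD for 6 genes in the 8 AIN-76A groups, the 4 injected groups in red on the left and the 4 undisturbed groups in blue on the right, with 5 arrays in each group except 4 at 100 ppb in water. Dbp and Nr1d1 have their lowest means among injected groups, Fkbp5 its highest in the groups given dexamethasone, and Mt1, Igfbp1 and Cyp4a14 have their highest undisturbed mean at 100 ppb in water.

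Across all 8 AIN-76A groups, the mean of Dbp was 3.04 to 3.70 in the 4 injected groups and 4.02 to 6.75 in the 4 undisturbed groups. For Nr1d1 it was 3.67 to 4.67 in injected and 4.94 to 5.87 in undisturbed groups. Mt1 did not follow that division: it averaged 11.19 ± 1.45 after saline (SD, n = 5) and 11.29 ± 2.72 at 100 ppb in water (n = 4), against 8.10 ± 3.06 in controls (n = 5). Igfbp1 averaged 10.83 ± 0.38 after saline, 8.68 ± 0.96 after arsenite, 9.59 ± 1.06 after dexamethasone and 10.61 ± 1.99 at 100 ppb in water, against 9.37 ± 0.52 in controls. Saline livers set against the mean of all 4 undisturbed groups also gave no call (0.00%), with 1723 probe sets (3.83%) at an unadjusted p under 0.05. That contrast shares all 10 arrays with the main one.

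Dexamethasone gives a scale for the glucocorticoid targets, in arrays that share the saline group. Fkbp5 averaged 9.76 ± 0.30 after dexamethasone, against 6.78 ± 1.15 after saline (SD, n = 5 each), a called difference of 2.98 (limma adjusted p = 0.00162), and 5.40 ± 0.50 in controls. Cdkn1a averaged 8.39 ± 0.52 after dexamethasone, against 6.16 ± 1.57 after saline (limma adjusted p = 0.0466), and 4.24 ± 0.71 in controls. Lpin1 averaged 11.05 ± 0.25 after dexamethasone, against 9.29 ± 1.03 after saline (limma adjusted p = 0.0313), and 7.55 ± 0.81 in controls. Saline livers had a mean between those of the other 2 groups for all 3 genes. The same order held for Per1, Tsc22d3, Ddit4, Gpt2 and Zbtb16. It did not hold for Igfbp1, at 9.59 after dexamethasone and 10.83 after saline, or for Mt2, at 9.65 and 10.18. All these genes were named for a small p in saline against control and were higher in saline livers. Only the place of dexamethasone in the order was therefore free. After arsenite injection Fkbp5, Cdkn1a and Lpin1 averaged 5.73, 5.41 and 7.71. In undisturbed livers at 100 ppb in water they averaged 7.10, 6.21 and 7.54, the first 2 above saline. The cause of this order was not tested. Mt1 averaged 11.18 ± 0.43 after dexamethasone and 11.19 ± 1.45 after saline, and its controls ranged from 5.03 to 12.49.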

How the data were processed

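The authors deposited log2 values per probe set. The submitters' processing notes name RMA, and neither its version nor its settings are known here. RMA draws dim probe sets together, so differences of dim genes can be understated. The file holds 45101 probe sets, of which 64 are controls, and the other 45037 were tested without a filter. The platform annotation gives 1 symbol for 34945, several for 932 and none for 9160. Of several probe sets of a gene, the brightest over 59 arrays was taken, for 18193 genes.

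Group means were fitted with limma 3.58.1 (R 4.3.3) to the 39 arrays of 8 AIN-76A groups, with Benjamini-Hochberg adjustment and a threshold of 0.05. The labels call arrays of a group replicates. The p-values rest on their spread within groups, pooled over all 39 arrays and not only over the 10 compared. The number of arrays limits precision. For Igfbp1 the SE was 0.55 in this fit and 0.25 with only the 10 arrays, while for Cenpm it was 0.11 and 0.15. The closest pair of arrays correlated at 0.994.

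The comparison, the 39 gene lists and the named genes were chosen with earlier results of these data known. Since fewer than 5 genes passed, the rule named the 10 genes with the smallest p, up to 8 per list by p, and the clock genes. The text names fewer, and also some list members chosen after their values were seen. The dexamethasone contrast and the metal response element were added after seeing the data. The fit was tested on simulated data. Alternatives were other array sets, normalizations, filters, weights and blocks.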

Additional observations from a re-analysis of the deposited data

Results flagged for a closer look

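Each array was set against the other 4 of its group, and a value was singled out where its gap to the nearest of them exceeded Dixon's 95% limit of 0.71 of the group's range. Over 76 named genes and both groups this gave 17 values in 152 sets of 5 arrays (11.2%). Chance alone flags about 1 in 20 sets. Some genes were named after their values were seen, so the 11.2% cannot be set against that rate. Genes on the same array are also not independent.

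Saline replicate B was lowest in its group for 4 acute phase genes. Saa1 stood at 10.86 there and at 13.31 to 13.51 in the other saline arrays, and Saa2 at 8.95 against 12.70 to 13.29. Lcn2 was at 6.18 in that array and 11.18 or more in the others, and Orm2 at 4.37 against 9.88 to 10.53. Control replicates B and D were also low for these genes.

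Saline replicate E was highest for 4 genes. Ltf was at 6.33 against 2.08 to 2.43 in the other saline arrays, Ngp at 7.33 against 2.04 to 2.46, and Lyz2 at 9.79 against 6.21 to 7.24. Dbp was at 5.84 there, against 2.68 to 3.51 in the other saline arrays. Control replicate E was lowest of the controls for Dbp, at 3.10 against 5.83 to 6.92, and for Msln, at 1.68 against 2.09 to 2.19.

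Control replicate C, which stood apart in its upper quartile, was lowest of the controls for 3 genes. These were Chka at 4.13 against 6.05 to 6.41, Dnajb1 at 4.05 against 6.01 to 6.17, and Utp20 at 3.92 against 5.46 to 5.70. The other single values were Pck1 at 9.67 in saline replicate A (10.34 to 10.47 in the others), Jun at 6.86 in saline replicate C (3.61 to 4.54), Noct at 4.04 in saline replicate F (5.25 to 5.64) and Rasl11a at 1.76 in saline replicate F (2.13 to 2.24).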

How the results depend on the processing

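Under 21 alternatives, saline against control gave 0 calls except for 1 probe set, of Cenpm, with array weights (limma adjusted p = 0.0459) and without saline replicate B. Leaving out 1 array at a time gave 0 to 1 calls for saline against control, 0 to 1 for saline against the 4 undisturbed AIN-76A groups, 0 to 3 for arsenite injection against 10 ppb in water and 0 to 1 for the difference between the 2 contrasts. The 3 calls came without saline replicate E and without control replicate E. In those 3 contrasts that involve saline, the 1 call was Cenpm without saline replicate B. No gene of the lists was called in saline against control under any of the 21. For arsenite injection against 10 ppb in water, calls numbered 5 with all 59 arrays, 3 with quantile normalization, 3 with median centring, 2 with a variance trend, 2 among probe sets with a mean over 4, 2 with 1 probe set per gene, 3 with the array apart as a block, 6 without the array apart of each group and 10 with array weights. Dbp, Nr1d1 and Tef were among them most often. The cause of these changes was not tested.

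Replicate letters were shared by 4 saline and control arrays, whose deviations correlated at 0.61 (B), 0.04 (C), 0.15 (E) and -0.31 (F), so the letters were not taken to pair arrays. With the letter as a replicate block, saline against control had 0 calls and arsenite injection against 10 ppb in water had 3.

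Differences of 65 genes were refitted, giving 1352 values, and 5 values of Clock and Tef, whose differences were near 0, changed sign. Leaving out 1 array gave -0.19 to 0.082 for Clock, above 0 without saline replicate E or F and without control replicate D or E. It gave -0.037 to 0.22 for Tef, below 0 without control replicate E. The same step gave wide ranges for Orm2 (0.12 to 2.11), Lcn2 (1.62 to 3.74), Mt2 (2.41 to 4.48), Mt1 (2.32 to 4.19), Saa2 (1.08 to 2.82), S100a9 (0.75 to 2.12), Saa1 (0.77 to 2.03) and Alas1 (0.27 to 1.21).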

Other observations

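Genes outside the lists also separated the groups, and those given here were chosen after their values were seen. Among 3789 genes with a mean level over 6, the saline arrays lay above all controls for 8 and below all controls for 12. These 20 stand beside 94 of all 18193 genes (0.517%), so separation was no more than a small share of either set. None passed the adjusted threshold by limma. With 5 arrays against 5, some genes separate by chance alone, and whether more did so here was not tested. Gpihbp1 encodes the capillary protein that carries lipoprotein lipase and is dimmer than that group. It stood at 5.03, 5.82, 5.46, 5.38 and 5.33 in saline livers, against 6.00, 6.37, 6.17, 5.86 and 6.58 in control livers, a difference of -0.79 ± 0.26 (SE, n = 5 each). In arsenite-injected livers against livers given 10 ppb in water it differed by -0.61 ± 0.26.

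Lifr, which encodes the receptor for leukemia inhibitory factor, lay at 8.59 to 9.55 in saline livers and 9.60 to 10.50 in control livers, a difference of -0.72 ± 0.34. Slc17a2, a phosphate and anion transporter gene, differed by -0.54 ± 0.18 and Mlycd, the gene of malonyl-CoA decarboxylase, by -0.41 ± 0.17. Rdh16f2, a retinol dehydrogenase family gene, was at 8.26 to 8.89 in saline livers and 7.42 to 8.15 in control livers, a difference of 0.72 ± 0.24. Gpx1, the gene of glutathione peroxidase 1, was separated by a narrow margin, at 12.20 to 12.45 in saline livers and 12.46 to 12.60 in control livers. In the second injected and undisturbed pair, Lifr differed by -0.14 ± 0.34, Slc17a2 by 0.17 ± 0.18, Mlycd by 0.15 ± 0.17 and Rdh16f2 by 0.08 ± 0.24.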
